A study of Mus musculus with 83 samples.

Results

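Midlife mice, 32 males at 9 and 15 mo, were compared with mice at both ends of the sampled life span, 16 at 3 mo and 18 at 28 mo, to find colon transcripts that have a peak or a trough in the middle of life. The contrast used 66 of the 83 mice of the series. The 17 mice at 24 mo stayed in the model, where they shared the estimate of the spread, and had no weight in the contrast, so their levels are given as a further point on each trajectory. All animals were untreated male C57BL/6J/Ukj mice kept for ageing, each was sampled once, and the labels give neither cage nor date nor time of day. The tissue was the full wall of the proximal colon, and polyadenylated RNA was sequenced from it in 3 library preparation batches, each of which held mice of every age. The 9 mo and 15 mo groups held 16 mice each and were chosen as midlife by age alone.

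The contrast subtracts the average of the 3 mo and 28 mo group levels from the average of the 9 mo and 15 mo levels, on the log2 scale and with library batch as a covariate. It is positive for a gene that is highest in midlife. It also moves with other shapes, because the midlife mice had a mean age of 12 mo and the ends a mean of 15.5 mo, and because a step late in life shifts only 1 end. Each gene was therefore described by a pair of further differences, the early arm (midlife minus 3 mo) and the late arm (midlife minus 28 mo). A gene was called a midlife peak or trough only when both arms had the same sign and both differed from 0, with the larger of their p-values adjusted over all genes. Tests were edgeR quasi-likelihood tests with Benjamini-Hochberg adjustment at 0.1, except where DESeq2 or a permutation test is named. Levels are given as CPM, read counts scaled to a common library total, with TMM normalisation. CPM compares mice for 1 gene and not genes with each other.

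The colon wall is lined by an epithelium that is replaced from crypt stem cells throughout life. Its goblet cells secrete mucus and antimicrobial proteins, its absorptive cells take up salt and water, and rarer tuft and enteroendocrine cells sense the lumen and signal to nerves and immune cells. Below the epithelium lie IgA-secreting plasma cells, vessels, nerves and smooth muscle, and a piece of whole wall measures all of them together. In such bulk tissue, fewer cells of a type and less RNA per cell cannot be told apart, which holds for every cell type marker below.

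Markers of the colon were present. Car1, a carbonic anhydrase of colonocytes, had group medians of 6403 CPM at 3 mo, 7551 at 9 mo, 6744 at 15 mo, 6333 at 24 mo and 6014 at 28 mo, and the small intestinal genes Lct and Defa24 had no mouse above 0.381 and 0.999 CPM. Other genes of the small intestinal list were present, and its summed level ran from 562 to 1081 CPM over all mice, with medians of 675 at 3 mo, 711 at 9 mo, 677 at 15 mo, 716 at 24 mo and 857 at 28 mo. Of its 7 members tested 3 were lower in midlife by the late arm alone, Mttp, Alpi and Slc5a1 (11.5% of all genes were lower). Gene counts of the 66 mice totalled 23026370 to 75838290 read pairs each (median 35459100). Summed transcripts of pancreatic acinar cells were high in 3 libraries, replicates 11 and 16 at 24 mo with 244 and 112 CPM and replicate 14 at 28 mo with 123 CPM, against at most 7.11 CPM in the other mice. A further 6 libraries stood apart from their age group over all genes (replicates 10 and 16 at 3 mo, 4 and 10 at 9 mo, 16 at 15 mo and 13 at 28 mo), and immunoglobulin genes took 2.42% and 2.49% of all counts in replicates 1 and 15 at 15 mo against at most 1.80% in the others. Each main count was therefore also computed without these libraries.

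Promoters are shown for some of the genes described below, chosen with their values known. They are Pla2g4c (both annotated starts) and Pnliprp2, which lead the peaks, the antimicrobial gene Itln1, and Per1, Dbp and Ciart, clock genes with a negative midlife contrast. Clps, Retnlb and Clca1 had no entry in the promoter table. Each line holds the 250 bases before a RefSeq transcript start (GRCm38.p6), written 5′ to 3′ on the strand of the gene. Capitals mark every match, on either strand, to a STAT-type palindrome with a 4-base spacer (TTCNNNNGAA) or a 3-base spacer (TTCNNNGAA), to the E-box CACGTG bound by clock factors, or to the D-box TTATGTAA.
Pla2g4c chr7:13325417-13325666 (+): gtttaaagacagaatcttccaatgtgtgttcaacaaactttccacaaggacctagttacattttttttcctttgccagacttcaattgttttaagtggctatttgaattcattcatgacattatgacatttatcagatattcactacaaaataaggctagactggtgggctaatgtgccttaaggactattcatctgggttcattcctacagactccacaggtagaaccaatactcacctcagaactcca
Pla2g4c chr7:13329072-13329321 (+): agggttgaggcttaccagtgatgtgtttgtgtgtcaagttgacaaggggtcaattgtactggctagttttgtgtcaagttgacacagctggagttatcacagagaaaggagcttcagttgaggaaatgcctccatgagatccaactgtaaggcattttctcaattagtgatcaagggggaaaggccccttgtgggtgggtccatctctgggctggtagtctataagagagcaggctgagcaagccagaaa
Pnliprp2 chr19:58759473-58759722 (+): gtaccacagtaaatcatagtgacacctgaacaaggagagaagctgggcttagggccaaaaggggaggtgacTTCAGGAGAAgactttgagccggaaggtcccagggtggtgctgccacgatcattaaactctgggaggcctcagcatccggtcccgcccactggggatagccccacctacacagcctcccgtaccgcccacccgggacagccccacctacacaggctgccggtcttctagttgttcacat
Itln1 chr1:171535295-171535544 (-): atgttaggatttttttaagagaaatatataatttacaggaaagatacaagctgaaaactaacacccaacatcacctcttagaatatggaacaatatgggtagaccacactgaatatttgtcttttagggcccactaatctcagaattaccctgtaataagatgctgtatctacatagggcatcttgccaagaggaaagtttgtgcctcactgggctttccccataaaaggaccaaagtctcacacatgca
Per1 chr11:69098699-69098948 (+): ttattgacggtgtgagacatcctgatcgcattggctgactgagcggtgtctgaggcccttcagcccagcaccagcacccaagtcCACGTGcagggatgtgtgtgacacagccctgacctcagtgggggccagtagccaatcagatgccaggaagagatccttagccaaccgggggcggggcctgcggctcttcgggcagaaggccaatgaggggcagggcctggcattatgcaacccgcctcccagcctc
Per1 chr11:69099902-69100151 (+): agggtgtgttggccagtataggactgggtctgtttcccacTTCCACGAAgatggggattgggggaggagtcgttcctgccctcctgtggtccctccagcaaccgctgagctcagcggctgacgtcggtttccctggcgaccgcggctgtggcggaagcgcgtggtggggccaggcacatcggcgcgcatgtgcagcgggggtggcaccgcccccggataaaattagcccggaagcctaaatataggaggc
Dbp chr7:45704997-45705246 (+): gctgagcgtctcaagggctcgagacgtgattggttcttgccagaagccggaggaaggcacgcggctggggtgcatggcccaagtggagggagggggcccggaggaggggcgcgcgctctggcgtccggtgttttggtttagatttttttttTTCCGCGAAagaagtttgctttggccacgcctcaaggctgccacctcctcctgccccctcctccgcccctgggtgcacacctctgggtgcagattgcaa
Ciart chr3:95882229-95882478 (-): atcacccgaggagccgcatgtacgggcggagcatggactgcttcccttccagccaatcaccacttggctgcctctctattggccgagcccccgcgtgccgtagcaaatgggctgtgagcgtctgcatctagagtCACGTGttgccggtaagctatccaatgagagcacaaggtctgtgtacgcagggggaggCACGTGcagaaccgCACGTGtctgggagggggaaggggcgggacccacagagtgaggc

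The Pnliprp2 window held 1 STAT-type match with the 4-base spacer, TTCAGGAGAA, which starts 179 bases before the transcript start, and neither the Pla2g4c windows nor the Itln1 window held any of the motifs. Per1 had an E-box 166 bases before its upstream start and a STAT-type match with the 3-base spacer, TTCCACGAA, 210 bases before its other start. Ciart had 3 E-boxes, the first 116 bases before the start, and Dbp had TTCCGCGAA 99 bases before the start. Over all 32851 RefSeq promoters of the same length, the shares with a match were 5.85% for the 4-base spacer, 7.02% for the 3-base spacer, 6.02% for the E-box and 0.819% for the D-box. Of the 22 peak and trough genes named below, 18 had an entry in the promoter table, of which 1 held the 4-base form, 1 an E-box and none the other motifs. A match is a run of letters in this window and says nothing about binding.

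Of 18325 genes tested, 4295 (23.4%) differed between midlife and the ends, 2188 (11.9%) of them higher in midlife and 2107 (11.5%) lower. Most differences were small, with a median size of 0.14 on the log2 scale, and 201 genes differed by more than 1.5-fold. The late arm carried most of the calls: it was the larger arm in 3540 genes (82.4%), and in 3276 of the 4295 genes it was the only arm past its own threshold. Over all genes 8758 (47.8%) passed by the late arm and 2098 (11.4%) by the early arm, whether or not the other arm passed too. The arms had opposite signs in 1041 called genes, so that their midlife level lay between those of the ends.

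Both arms passed their own threshold in the same direction in 477 of the called genes (11.1%). Under the stricter peak and trough test, 29 genes (0.158% of those tested) had a midlife peak and 14 (0.0764%) a midlife trough, and 816 more reached an unadjusted p under 0.05 without passing. With 3 mo weighted by 0.64 and 28 mo by 0.36, which removes any straight line in age, 2504 genes were called in all (13.7%). All 43 were among them. That weighting averages the same arms that chose the 43, so this outcome was nearly fixed in advance and adds nothing to the peak and trough test. The number of peaks and troughs moved with single mice: it was 18 without replicate 13 at 3 mo, 25 without replicate 15 at 3 mo, 28 without replicate 2 at 3 mo or replicate 15 at 15 mo, 67 without replicate 14 at 3 mo and 104 without replicate 5 at 3 mo. It was 35 without the 6 libraries that stood apart (22 of them among the 43), 32 without the 2 rich in immunoglobulin (31 among the 43) and 42 without the 3 with acinar transcripts (40 among the 43). With the 9 mo mice alone as midlife 1 gene passed, Iba57 (named after its value was seen), and with the 15 mo mice alone 66 passed, 27 of them among the 43. No gene passed when 9 mo and 15 mo each had to differ from both ends (edgeR, 245 genes at an unadjusted p under 0.05), and none passed within 1 library batch alone (404, 297 and 518 genes at an unadjusted p under 0.05 in batches 1, 2 and 3). DESeq2 called 86 with all mice, the 43 included.

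**Figure D1:**
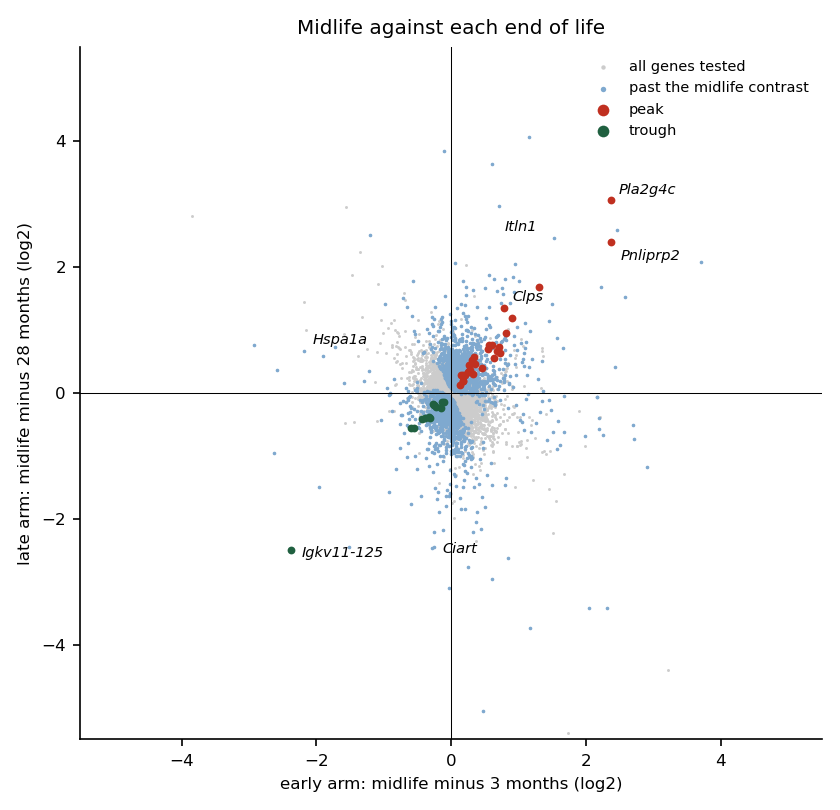
Early arm (midlife minus 3 mo, x axis) against late arm (midlife minus 28 mo, y axis) in log2 units for all 18325 genes tested, with the 4295 genes past the midlife contrast in blue, the 29 peaks in red and the 14 troughs in green. Peaks lie at the upper right and troughs at the lower left, while blue points beside the vertical line have a small early arm. The immunoglobulin segment was labelled after its value was seen.

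Pla2g4c and Pnliprp2 were the 2 peaks with the largest smaller arm. Pla2g4c encodes a cytosolic phospholipase A2 that releases fatty acids from membrane phospholipids (ENSMUSG00000033847, chr7:13324655-13360672, + strand, GRCm38). It ranged from 2.76 to 106 CPM at 3 mo (median 11.7), 6.82 to 304 at 9 mo (median 49.0), 3.59 to 849 at 15 mo (median 71.2), 3.85 to 498 at 24 mo (median 47.8) and 3.03 to 79.6 at 28 mo (median 4.51). Midlife was 6.55-fold above the ends, a log2 difference of 2.71 ± 0.46 (SE, adjusted p = 1.18e-05), with an early arm of 2.36 ± 0.60 and a late arm of 3.06 ± 0.61. Of the 32 midlife mice 28 lay above the 3 mo median and 31 above the 28 mo median, and 3 of the 34 mice at the ends lay above the midlife median, so the groups overlapped in single mice. The spread within midlife was wide, and 1 mouse at 15 mo held 22.4% of the summed CPM of the 32 midlife mice. The peak test gave an adjusted p of 0.0833. It was passed in 48 of the 66 fits that left out 1 mouse each, and the adjusted p rose to 0.165 without 3 mo replicate 15. Within library batches 1, 2 and 3 the contrast was 3.65, 2.86 and 1.38.

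Pnliprp2 encodes a pancreatic lipase-related protein that splits galactolipids and triglycerides (ENSMUSG00000025091, chr19:58759719-58777534, + strand). Its levels were 1.70 to 24.6 CPM at 3 mo (median 4.07), 2.98 to 74.2 at 9 mo (median 17.2), 2.47 to 250.2 at 15 mo (median 38.1), 1.82 to 109.9 at 24 mo (median 16.7) and 1.27 to 31.2 at 28 mo (median 3.24). The contrast was 2.38 ± 0.37 (SE, adjusted p = 1.91e-06) and the arms were nearly equal, 2.36 ± 0.49 against 3 mo and 2.40 ± 0.48 against 28 mo. The peak test gave an adjusted p of 0.017 and was passed with every single mouse left out. Of the midlife mice 29 lay above the 3 mo median and 30 above the 28 mo median, and within batches the contrast was 3.17, 2.43 and 1.67.

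Clps encodes colipase, the cofactor that anchors pancreatic lipase to fat droplets (ENSMUSG00000024225, chr17:28558149-28560766, - strand). It spanned 8.96 to 28.9 CPM at 3 mo (median 15.6), 11.2 to 44.9 at 9 mo (median 25.3), 13 to 87.9 at 15 mo (median 29.1), 9.11 to 39.8 at 24 mo (median 17.7) and 5.76 to 22.3 at 28 mo (median 10.4). All 32 midlife mice lay above the 28 mo median and 30 above the 3 mo median, and 1 end mouse lay above the midlife median. Midlife was 2.1-fold above the ends, a contrast of 1.07 ± 0.15 (adjusted p = 1.49e-07) with arms of 0.78 and 1.36, and the peak test gave an adjusted p of 0.0592. That call was lost in turn without replicate 13 at 3 mo (adjusted p = 0.132), replicate 15 at 3 mo (adjusted p = 0.131) or replicate 15 at 15 mo (adjusted p = 0.105). Both genes are named for the pancreas. The summed level of the acinar markers reached at most 0.456 CPM at 3 mo, 2.09 CPM at 9 mo and 0.673 CPM at 15 mo. Of the 9 markers 2 were at 0 in all 3 mo mice, 1 in all 9 mo mice and 1 in all 15 mo mice. The 28 mo library with 123 CPM of acinar transcripts had 3.81 CPM of Pnliprp2 and 18.2 CPM of Clps. The 24 mo libraries with 244 and 112 CPM had 41.8 and 3.94 CPM of Pnliprp2 and 36.1 and 17.7 CPM of Clps. The carboxylesterase gene Ces1c also passed the peak test (contrast 1.5, adjusted p = 0.0541), at a mean of 0.198 CPM.

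**Figure D2:**
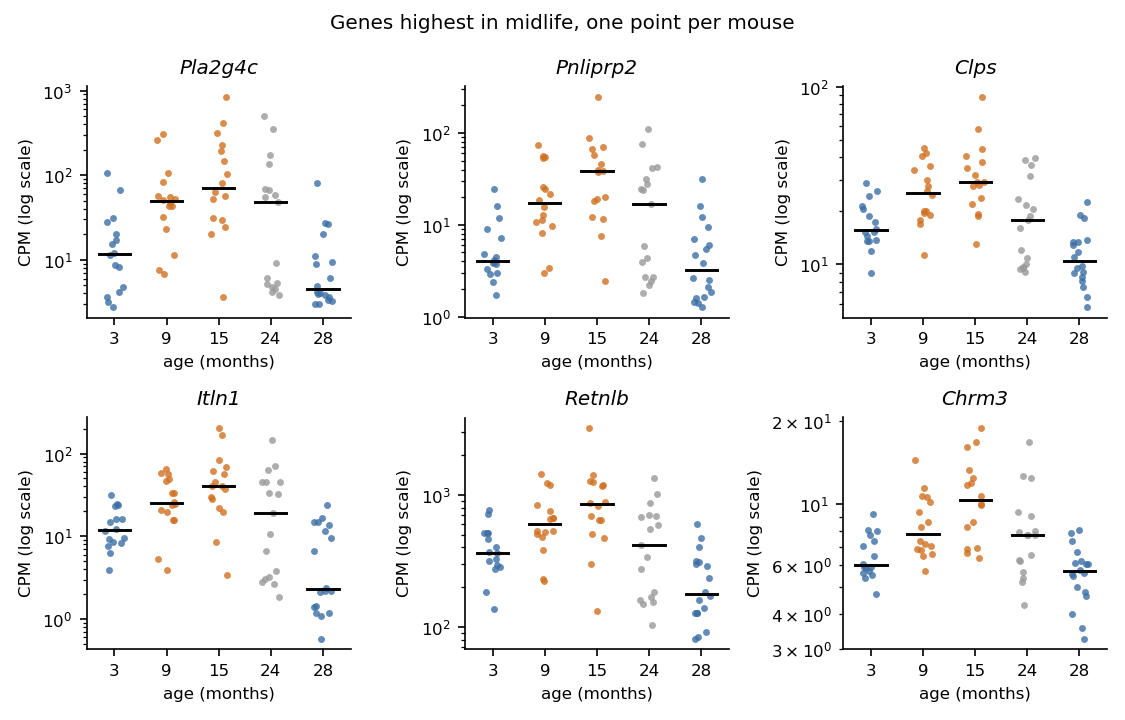
Level in CPM (log scale, y axis) against age in months (x axis) for 6 genes that were highest in midlife, with 1 point per mouse and a line at each group median. The 9 mo and 15 mo mice are orange, the 3 mo and 28 mo mice blue and the 24 mo mice grey. Itln1 and Retnlb did not pass the peak test, and Pla2g4c medians were 11.7, 49.0, 71.2, 47.8 and 4.51 CPM from the youngest to the oldest group.

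A pair of receptors that couple to intracellular calcium had smaller peaks. Chrm3, the muscarinic receptor through which acetylcholine drives epithelial secretion and smooth muscle contraction (ENSMUSG00000046159, chr13:9875486-10360847, - strand), spanned 4.74 to 9.17 CPM at 3 mo (median 5.99), 5.74 to 14.4 at 9 mo (median 7.80), 6.40 to 18.8 at 15 mo (median 10.4), 4.30 to 16.8 at 24 mo (median 7.74) and 3.26 to 8.03 at 28 mo (median 5.72). All 32 midlife mice lay above the 28 mo median and 31 above the 3 mo median. The contrast was 0.66 ± 0.10 (adjusted p = 8.86e-07), the arms were 0.56 and 0.76, and the peak test (adjusted p = 0.04) was passed with every mouse left out. Grpr, the gastrin-releasing peptide receptor (ENSMUSG00000031364, chrX:163513904-163549677, - strand), had a contrast of 0.62 ± 0.10 with arms of 0.55 and 0.69 (peak test adjusted p = 0.0441), on levels of 1.24 to 3.40 CPM at 3 mo (median 2.03), 1.76 to 4.77 at 9 mo (median 3.50), 1.78 to 5.17 at 15 mo (median 3.61), 1.94 to 4.95 at 24 mo (median 2.83) and 1.15 to 3.45 at 28 mo (median 2.16). None of the 34 end mice exceeded the midlife median of 3.51 CPM. Without 3 mo replicate 13 its adjusted p was 0.105.

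Scin, which encodes the actin-severing protein scinderin used in regulated secretion (ENSMUSG00000002565, chr12:40059769-40134228, - strand), was a peak gene with higher counts. It spanned 131 to 226 CPM at 3 mo (median 166), 169.7 to 259.8 at 9 mo (median 206), 147 to 285 at 15 mo (median 208), 142 to 250.05 at 24 mo (median 182) and 94.5 to 199 at 28 mo (median 139.8). The ranges overlapped, but all 32 midlife mice lay above the 28 mo median and 1 of the 34 end mice above the midlife median. The contrast was 0.42 ± 0.05 (adjusted p = 3.23e-08), with arms of 0.31 and 0.53 and a peak test adjusted p of 0.0326. Rab27a and Rab27b, the small GTPases that dock secretory vesicles at the cell surface, passed the same test with contrasts of 0.22 and 0.19 (adjusted p = 0.0694 and 0.04). Both were chosen for mention after their values were seen, and without replicate 13 at 3 mo their adjusted p-values were 0.203 and 0.103.

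Mmp9, the gelatinase that degrades denatured collagen and basement membrane (ENSMUSG00000017737, chr2:164940780-164955850, + strand), had the lowest peak test p of the named peaks. It spanned 1.49 to 4.09 CPM at 3 mo (median 2.52), 2.54 to 5.34 at 9 mo (median 3.86), 3.00 to 10.1 at 15 mo (median 3.84), 2.00 to 5.08 at 24 mo (median 3.78) and 1.28 to 4.53 at 28 mo (median 2.72). All 32 midlife mice exceeded the 3 mo median and 29 the 28 mo median, and the contrast of 0.69 ± 0.10 split evenly into arms of 0.73 and 0.64 (peak test adjusted p = 0.00807). It was the only 1 of the 17 tested metalloproteinase and inhibitor genes with a peak. In that list 5 others were lower in midlife by the contrast, against 11.5% of all genes. The macrophage elastase Mmp12 led them with -1.26 and arms of 0.24 and -2.77.

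Ceacam12, a carcinoembryonic antigen-related surface protein, spanned 5.98 to 9.85 CPM at 3 mo (median 8.44), 7.46 to 17.6 at 9 mo (median 11.1), 9.18 to 25.2 at 15 mo (median 11.7), 3.05 to 20.0 at 24 mo (median 6.03) and 3.72 to 11.7 at 28 mo (median 7.83), with a contrast of 0.68 ± 0.11 and arms of 0.60 and 0.76 (peak test adjusted p = 0.0503). Its 24 mo median lay below that of both ends, and the call was lost without replicate 15 at 3 mo (adjusted p = 0.109) or replicate 13 at 3 mo (adjusted p = 0.105). The other named peaks were smaller: Tcf23, a helix-loop-helix regulator, with 0.42 (adjusted p = 0.0503), the calcium-activated chloride channel gene Ano2 with 0.41 (0.0995), the slow muscle troponin gene Tnni1 with 0.32 (0.0492) and the serine protease gene Tmprss7 with 0.31 (0.0833). The call of Tnni1 was lost without replicate 13 at 3 mo (adjusted p = 0.128). Ano2 and Tmprss7 kept the call in 25 and 38 of the 66 fits without 1 mouse, with highest adjusted p-values of 0.253 without 3 mo replicate 13 and 0.159 without 28 mo replicate 7. Of the peaks outside the named set, Pycr1, which makes proline in mitochondria, had the lowest p together with the processed pseudogene Gm5340 (adjusted p = 0.00776 for both, chosen after their values were seen), with contrasts of 0.29 and 1.05. In all, 22 of the 29 peaks were protein coding and 28 had the same sign in every batch. Ces1c had no value in batch 1. The smaller arm of the 29 ran from 0.13 to 2.36.

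Mice that were high for Pla2g4c were also high for other peak and goblet genes of the same age. After age and batch means were removed from log2(CPM + 0.5), the residuals of Pla2g4c and Pnliprp2 over the 66 mice had a Pearson r of 0.881 and a Spearman rho of 0.822, and r was 0.850 without the 2 mice farthest from the median and 0.906, 0.914 and 0.834 within batches 1, 2 and 3. For Retnlb and Itln1, antimicrobial proteins described below, r was 0.846 and 0.795 and rho 0.839 and 0.793, and without the 2 mice r was 0.802 and 0.749. Within the age groups the r with Pnliprp2 was 0.832 at 3 mo, 0.813 at 9 mo, 0.925 at 15 mo and 0.942 at 28 mo. The r was 0.745 for Clca1, 0.697 for Clps, 0.666 for Chrm3, 0.648 for Grpr, 0.641 for Scin and 0.616 for Ang4, with rho of 0.707, 0.642, 0.574, 0.611, 0.576 and 0.677. Without the 2 mice farthest from the median of Pla2g4c the r of these 6 ran from 0.553 (Scin) to 0.690 (Clca1). Within batches 1, 2 and 3 it was 0.618, 0.855 and 0.272 for Scin and 0.531, 0.852 and 0.400 for Grpr, lowest in batch 3. For the other 4 it ran from 0.544 to 0.799. Each of these 9 relations had a permutation p of 1e-05, the smallest that 100000 permutations can give, and an adjusted p of 1.44e-05 over the 13 relations computed. Ceacam12 (r = 0.427, rho = 0.468, adjusted permutation p = 0.000364) and Mmp9 (r = 0.311, rho = 0.305, adjusted permutation p = 0.0129) had lower values, with r of 0.373 and 0.268 without the 2 mice. The batch values of Mmp9 were 0.604, 0.169 and 0.161, and its r by age was 0.191 at 3 mo, -0.052 at 9 mo, 0.560 at 15 mo and 0.295 at 28 mo. For the trough gene Wfdc2 r was -0.216 (adjusted permutation p = 0.0889) and rho -0.267 (adjusted permutation p = 0.0333), with batch values of unlike sign, -0.405, -0.281 and 0.202. Its r also differed in sign between ages, 0.303 at 3 mo, -0.559 at 9 mo, -0.683 at 15 mo and 0.0810 at 28 mo. For C1qtnf3 r was 0.0793 (adjusted permutation p = 0.528). Both genes of each relation were measured in the same library, so depth and tissue make-up are common to them.

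Troughs numbered 14 against 29 peaks, and their median smaller arm was -0.27 against 0.35. Wfdc2 encodes an epithelial protease inhibitor with antibacterial activity (ENSMUSG00000017723, chr2:164562413-164568510, + strand). It spanned 41.2 to 73.3 CPM at 3 mo (median 52.3), 30.3 to 52.0 at 9 mo (median 42.4), 28.8 to 49.5 at 15 mo (median 41.9), 32.1 to 57.1 at 24 mo (median 48.7) and 31.6 to 84.8 at 28 mo (median 54.5). No midlife mouse lay above the median of either end, and 30 of the 34 end mice lay above the midlife median. The contrast was -0.40 ± 0.06 (adjusted p = 1.57e-06), the arms were -0.39 and -0.40, and the trough test (adjusted p = 0.00807) was passed with every mouse left out.

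C1qtnf3, a secreted relative of adiponectin (ENSMUSG00000058914, chr15:10952332-10980150, + strand), spanned 10.4 to 19.4 CPM at 3 mo (median 14.1), 6.58 to 14.9 at 9 mo (median 10.4), 8.11 to 13.2 at 15 mo (median 10.3), 6.25 to 16.6 at 24 mo (median 12.2) and 7.92 to 20.4 at 28 mo (median 13.9). The contrast of -0.43 ± 0.07 was again even, with arms of -0.44 and -0.42 (trough test adjusted p = 0.00807), and 2 of the 32 midlife mice lay above the median of each end. Mpp1, a membrane scaffold protein (ENSMUSG00000031402, chrX:75109733-75131016, - strand), spanned 30.4 to 55.6 CPM at 3 mo (median 37.2), 27.1 to 40.7 at 9 mo (median 35.0), 23.8 to 37.2 at 15 mo (median 29.5), 26.4 to 46.8 at 24 mo (median 36.9) and 32.7 to 53.8 at 28 mo (median 41.9), with a contrast of -0.35 ± 0.05 and arms of -0.31 and -0.40 (adjusted p = 0.017). No midlife mouse exceeded the 28 mo median of Mpp1 and 4 exceeded the 3 mo median. The zinc finger gene Zbtb34 had a contrast of -0.22 ± 0.03 (trough test adjusted p = 0.0194), with group medians of 13.4 CPM at 3 mo, 11.5 at 9 mo, 11 at 15 mo, 12.2 at 24 mo and 12.4 at 28 mo. Wfdc2, C1qtnf3, Mpp1 and Zbtb34 were called with every mouse left out.

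Olfr165, an olfactory receptor gene at a low level, had group medians of 2.36 CPM at 3 mo, 1.69 at 9 mo, 1.39 at 15 mo, 1.97 at 24 mo and 2.38 at 28 mo and a contrast of -0.58 ± 0.11 (trough test adjusted p = 0.0492), a call lost without replicate 17 at 28 mo (adjusted p = 0.107) or replicate 9 at 28 mo (adjusted p = 0.107). The remaining named troughs included regulators of chromatin and of the actin cytoskeleton. Hmga2, an architectural chromatin protein, differed by -0.23 (adjusted p = 0.0694), and Mllt6, a partner of histone-modifying complexes, by -0.20 (0.0503). Diaph1, a formin that assembles actin filaments, differed by -0.12 (0.0833), Trip10, a Cdc42-binding protein, by -0.14 (0.0833), and the adhesion adaptor gene Trip6 by -0.22 (0.0759). Of these 5, Mllt6 was called in 63 of the 66 fits without 1 mouse and the others in 46 to 52. Mllt6 lost the call without replicate 13 at 3 mo (adjusted p = 0.172), replicate 15 at 3 mo (adjusted p = 0.167) or replicate 2 at 3 mo (adjusted p = 0.106). The adjusted p rose to 0.222 and 0.273 for Hmga2 and Trip10 without replicate 15 at 3 mo, to 0.161 for Trip6 without replicate 7 at 28 mo and to 0.186 for Diaph1 without replicate 16 at 3 mo. The deepest trough by fold, an immunoglobulin kappa variable segment (contrast -2.44, adjusted p = 0.0492, named after its value was seen), reached an adjusted p of 0.393 without replicate 10 at 28 mo. Of the 14 troughs 12 were protein coding and all 14 had the same sign in every batch, and the smaller arm ran from -0.11 to -2.38.

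**Figure D3:**
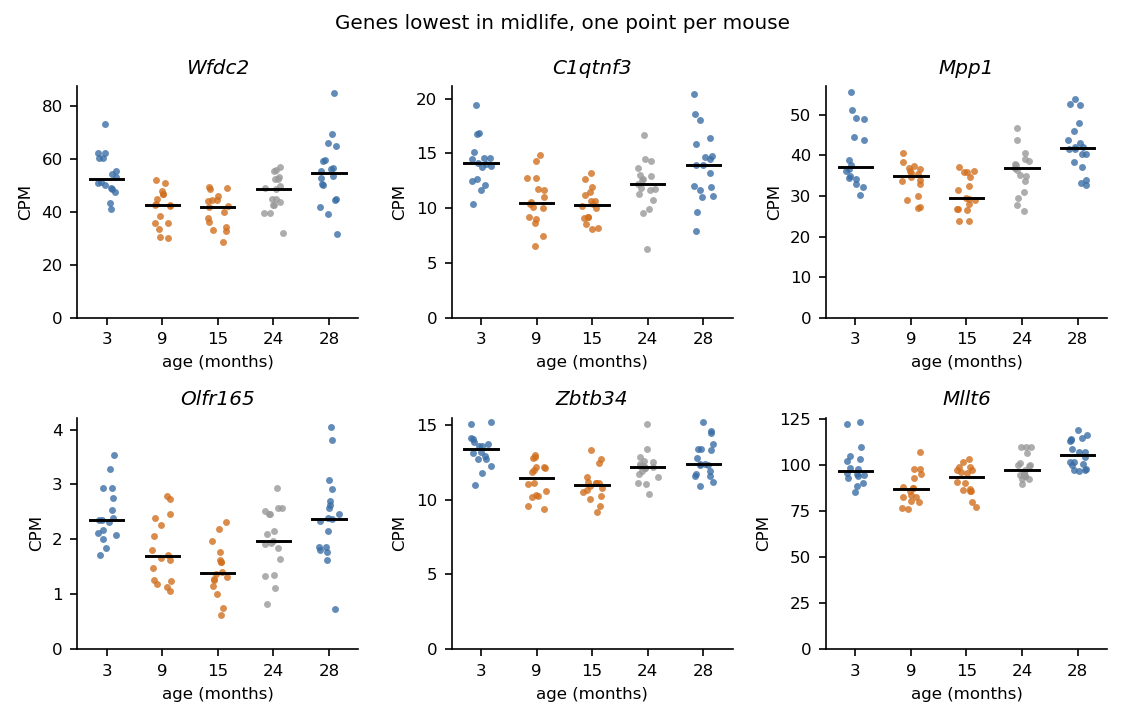
Level in CPM (y axis, starting at 0) against age in months (x axis) for 6 genes that were lowest in midlife, 1 point per mouse with a line at each group median, coloured as in the plot of the peak genes. The midlife points of Wfdc2 all lie below the medians of 3 mo and 28 mo, 52.3 and 54.5 CPM.

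Mean levels of most peaks were higher at 15 mo than at 9 mo and lay between the midlife and 28 mo levels at 24 mo. The 15 mo mean was above the 9 mo mean in 23 of the 29 peaks and below it in 9 of the 14 troughs, but none of the 43 genes differed between 9 mo and 15 mo by the edgeR test, which called 79 genes in all (0.431%). The 24 mo mice, which had no weight in the contrast, had a mean between that of midlife and that of 28 mo in all 29 peaks and all 14 troughs, against 56.0% of all genes tested, 57.5% of genes with both arms above 0 and 52.5% of those with both arms below 0. The midlife and 28 mo levels that bound this interval are those that chose the genes. At 24 mo, 18 peaks were still above and 4 troughs still below the 28 mo level past the threshold (11.7% of all genes differed between 24 mo and 28 mo in either direction). Midlife differed from 24 mo in 17 peaks and 8 troughs, against 20.5% of all genes.

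Secreted antimicrobial and goblet cell genes were the lists with the most members that differed from both ends by both arms. Of 21 antimicrobial genes tested, 12 rose in midlife and 2 fell, and in 8 of these 14 both arms passed in the same direction. Of 10 goblet cell markers 8 rose, 6 of them by both arms, and of 17 mucus genes 9 rose and 2 fell. Over all genes 11.9% rose and 11.5% fell, and both arms passed in the same direction in 11.1% of the calls. With the weights neutral to a straight line 5 mucus genes rose. The median contrasts were 0.31, 0.33 and 0.11, against -0.003 over all genes. The lists share members, and none of these genes passed the stricter peak test.

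Itln1, intelectin-1, a lectin that binds microbial sugars, led this group. It spanned 3.89 to 31.9 CPM at 3 mo (median 11.8), 3.95 to 65.3 at 9 mo (median 25.5), 3.41 to 203 at 15 mo (median 40.8), 1.85 to 145 at 24 mo (median 19) and 0.583 to 24.1 at 28 mo (median 2.31). All 32 midlife mice lay above the 28 mo median and none of the 34 end mice above the midlife median. The contrast was 2.00 ± 0.34 (adjusted p = 1.10e-05), with arms of 1.53 and 2.47 and a peak test adjusted p of 0.161. Retnlb, the bactericidal goblet cell protein RELM-beta, spanned 137 to 769 CPM at 3 mo (median 364), 224 to 1451 at 9 mo (median 597), 132 to 3209.8 at 15 mo (median 846), 102 to 1350.2 at 24 mo (median 419) and 81.4 to 605 at 28 mo (median 177), with a contrast of 1.39 ± 0.22, arms of 1.00 and 1.79 and a peak test adjusted p of 0.145. Ang4, an antimicrobial ribonuclease, had a contrast of 1.5 ± 0.28 with arms of 0.94 and 2.05 on group medians of 340.5 CPM at 3 mo, 633 at 9 mo, 883 at 15 mo, 518 at 24 mo and 112 at 28 mo. Ang4 and Retnlb belong to families with close relatives, and only uniquely mapped read pairs were counted, so the split between copies is uncertain.

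Among mucus genes, Clca1, a metalloprotease that processes the mucus gel, had group medians of 4986 CPM at 3 mo, 6634 at 9 mo, 8813 at 15 mo, 5332 at 24 mo and 2664 at 28 mo and a contrast of 0.96 ± 0.13 (arms 0.56 and 1.36). Fcgbp, which crosslinks mucin, had a contrast of 0.46 ± 0.08 (arms 0.29 and 0.64), while the mucin gene Muc2 itself had 0.11 ± 0.04, with an early arm of -0.01. The membrane mucin gene Muc1 went the other way with -0.40 ± 0.10. Summed over the 10 goblet markers, the level was 30091 to 41206 CPM at 3 mo (median 35612), 34465 to 47098 at 9 mo (median 41122), 24096 to 57725 at 15 mo (median 43845), 28342 to 44367 at 24 mo (median 34734) and 24843 to 36409 at 28 mo (median 28454), so the marker sum moved with the peak genes, and its part in their difference was not tested. Duox2 and Duoxa2, the oxidase and its maturation factor that make hydrogen peroxide at the epithelial surface, had contrasts of 0.45 ± 0.10 and 0.77 ± 0.15, the latter with arms of 0.66 and 0.88. Chosen after their values were seen, the gasdermin genes Gsdmc2 and Gsdmc4 had contrasts of 1.16 and 1.17, and the pentraxin gene Mptx1 had 2.12 with unequal arms of 0.60 and 3.64. The gasdermin C genes are near-identical copies and their split is uncertain too.

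Genes of IgA secretion were also higher in midlife. Of 8 plasma cell markers 6 rose, 3 by both arms, with a median contrast of 0.42 (75% called, against 23.4% of all genes). Igha, the heavy chain of IgA, spanned 1492 to 3580.4 CPM at 3 mo (median 2228), 1706 to 5392 at 9 mo (median 2725), 2099.9 to 11137 at 15 mo (median 2996), 1658 to 7043 at 24 mo (median 3687) and 1307 to 4948 at 28 mo (median 2545), which overlapped widely between ages. Its contrast was 0.49 ± 0.14 (adjusted p = 0.00795), with arms of 0.62 and 0.36. Jchain, which joins IgA dimers, and Mzb1, a chaperone of antibody secretion, had contrasts of 0.46 ± 0.12 and 0.49 ± 0.14. Without the 2 libraries at 15 mo that were rich in immunoglobulin, 5 of the 8 markers rose. The contrast of Igha was then 0.33 (adjusted p = 0.0587). Both of these libraries were of batch 1. Within library batches 1, 2 and 3 the Igha midlife contrast was 0.81, 0.38 and 0.23. It passed in batch 1 and not in batches 2 and 3 (adjusted p = 0.0749, 0.394 and 0.629). With 9 mo alone as midlife it was 0.24 (adjusted p = 0.409). None of 9 B cell markers passed (edgeR, 0 at an unadjusted p under 0.05, and 0 by DESeq2).

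The amino acid response, the ATF4-driven programme that cells switch on when amino acids are short, rose in 8 of 13 genes and fell in none. That is 61.5% called, against 23.4% of all genes, and 5 of the 8 passed by both arms. Chac1, which degrades glutathione, spanned 1.48 to 4.09 CPM at 3 mo (median 2.41), 2.14 to 5.46 at 9 mo (median 2.92), 2.22 to 5.17 at 15 mo (median 3.97), 1.85 to 8.92 at 24 mo (median 3.21) and 1.21 to 3.35 at 28 mo (median 2.38), with a contrast of 0.56 ± 0.10 (adjusted p = 6.63e-05) and nearly equal arms of 0.51 and 0.60. Of the midlife mice 29 lay above each end's median, and the peak test gave an adjusted p of 0.102. The cystine transporter gene Slc7a11 had a contrast of 0.49 ± 0.10 and the mitochondrial folate enzyme gene Aldh1l2 0.38 ± 0.08. Pycr1, which passed the peak test above, is an enzyme of amino acid synthesis as well.

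**Figure D4:**
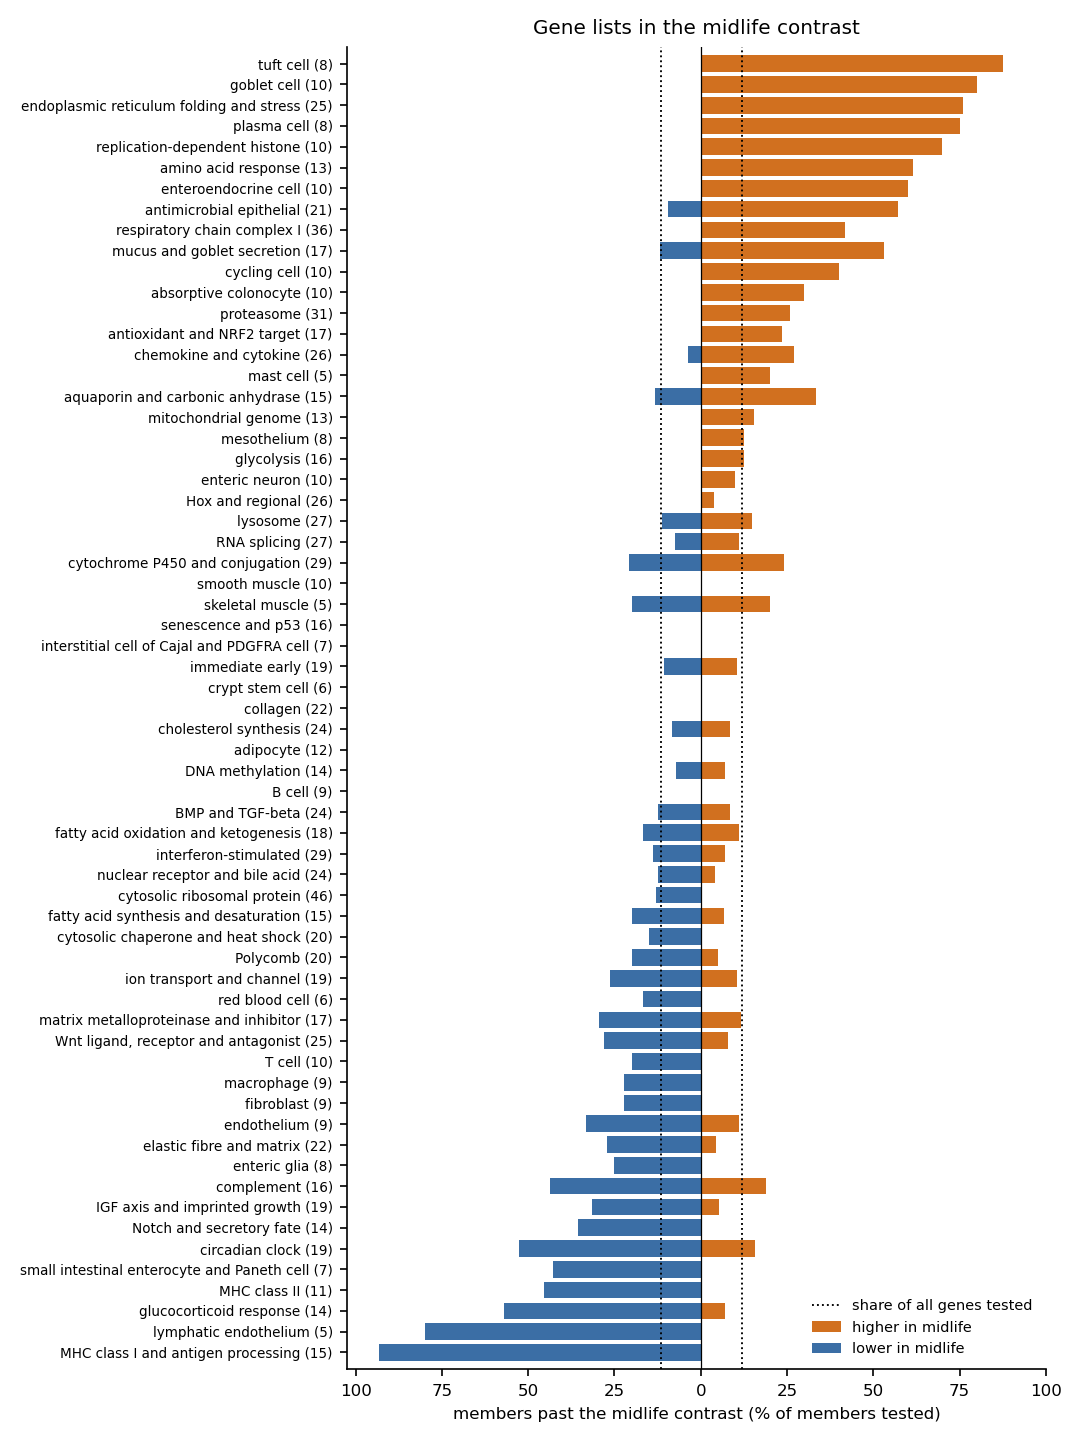
Share of tested members (x axis, percent) that were higher (orange, to the right) or lower (blue, to the left) in midlife for each gene list, with the number of tested members in parentheses and dotted lines at the shares over all genes, 11.9% and 11.5%. Tuft, goblet, endoplasmic reticulum and plasma cell lists stand at the top and antigen processing at the bottom. The bars count the contrast and do not show whether 1 or both arms moved.

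In several other lists most calls came with the late arm alone past its own threshold, as did 76.3% of the calls over all genes. Over all genes 11.9% rose in midlife. Endoplasmic reticulum folding genes rose in 19 of 25, 18 of them by the late arm only, and all 7 tuft cell markers that rose, of 8, did so by the late arm. The chaperone gene Pdia6 had group medians of 283 CPM at 3 mo, 281 at 9 mo, 300.3 at 15 mo, 249 at 24 mo and 199 at 28 mo, an early arm of 0.05 and a late arm of 0.55. Sdf2l1, of the same compartment, had arms of 0.05 and 0.62. Trpm5, the taste channel of tuft cells, had group medians of 13.9 CPM at 3 mo, 14.5 at 9 mo, 14.8 at 15 mo, 11.9 at 24 mo and 9.16 at 28 mo with arms of 0.01 and 0.69, and Rgs13 had 0.13 and 0.82. Of 10 enteroendocrine genes 6 rose, 5 by the late arm only, which is near the share over all genes. Gcg, the precursor of the gut peptide GLP-1, had arms of -0.06 and 0.87, and Insl5, a hormone of colonic L cells, 0.00 and 0.98. Cck, the cholecystokinin gene, was the 1 with both, 0.36 and 0.50 (peak test adjusted p = 0.310). The 15 complex I genes of 36, 8 proteasome genes of 31, 7 histone genes of 10 and 4 cell cycle markers of 10 that rose all did so by the late arm alone.

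Clock output genes were lower in midlife than the average of the ends. The circadian clock is a feedback loop in which Per and Cry proteins repress their own activators, and Dbp and Ciart are direct outputs of it. Of 19 clock genes 10 fell and 3 rose (68.4% called, against 23.4% of all genes). Of these 13, 11 passed by the late arm only, a share near the 76.3% over all called genes. Ciart spanned 0.369 to 1.87 CPM at 3 mo (median 0.753), 0.326 to 1.24 at 9 mo (median 0.773), 0.405 to 1.69 at 15 mo (median 0.742), 0.528 to 2.86 at 24 mo (median 0.653) and 0.529 to 11 at 28 mo (median 3.59). Its contrast was -1.35 ± 0.22 (adjusted p = 4.89e-06), with arms of -0.25 and -2.44, and no midlife mouse lay above the 28 mo median. Dbp had a contrast of -0.85 ± 0.23 with arms of 0.15 and -1.84. With the weights neutral to a straight line the Dbp midlife contrast was -0.57 (adjusted p = 0.111), and within batches 1, 2 and 3 it was -1.43, -0.13 and -0.88. Per1, which glucocorticoids also induce, was 1 of 2 clock genes with both arms past their threshold. The other was Per2 (contrast -0.58, trough test adjusted p = 0.569, named after its value was seen). Per1 spanned 14.8 to 48.5 CPM at 3 mo (median 27.7), 12.7 to 26.5 at 9 mo (median 18.3), 9.99 to 31.4 at 15 mo (median 23.2), 14.2 to 54.6 at 24 mo (median 20.3) and 16.7 to 109 at 28 mo (median 42.6), with a contrast of -0.86 ± 0.13 and arms of -0.50 and -1.21 (trough test adjusted p = 0.227). The time of day at which mice were killed is not in the labels, and its part in these differences was not tested.

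Glucocorticoid response genes fell in 8 of 14 and rose in 1 (64.3% called, against 23.4% of all genes). The 9 calls were split evenly between the late arm alone, the early arm alone and both arms. Mt2, a metallothionein induced by glucocorticoids and metals, had group medians of 21.7 CPM at 3 mo, 23.8 at 9 mo, 17.1 at 15 mo, 24.5 at 24 mo and 45.3 at 28 mo. Its contrast was -0.84 ± 0.17 (adjusted p = 0.000153), with arms of -0.66 and -1.01 and a trough test adjusted p of 0.227. Of the 32 midlife mice 14 lay above the 3 mo median of Mt2, and without replicate 13 at 3 mo the Mt2 midlife contrast was -0.63 (adjusted p = 0.00100). Zbtb16, a transcription factor induced by the same hormones, had a contrast of -0.56 ± 0.15 with arms of -0.12 and -1.0.

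Antigen presentation genes were lower in midlife than at 28 mo. The median late arms were -0.30 for MHC class I and -0.62 for MHC class II genes, and the median early arms -0.03 and 0.11. Of 15 MHC class I and processing genes 14 fell, and of 11 class II genes 5 fell, in each case by the late arm alone. Over all genes 11.5% fell. With the weights neutral to a straight line, 9 class I genes and 0 class II genes fell. The class II count also ranged from 1 to 7 over the other fits with all batches, and it was 0 within each batch. With those weights the contrast of Ciita was -0.29 (adjusted p = 0.131) and that of H2-Aa -0.25 (adjusted p = 0.187). Nlrc5, the transactivator of class I genes, spanned 7.48 to 25.3 CPM at 3 mo (median 16.4), 8.97 to 23.6 at 9 mo (median 14.8), 11.1 to 24.1 at 15 mo (median 17.6), 10.7 to 30.0 at 24 mo (median 23) and 15.4 to 60.2 at 28 mo (median 27.4), with an early arm of 0.00 and a late arm of -0.91. Ciita, its class II counterpart, had arms of 0.05 and -0.89, and H2-Aa, a class II chain, 0.14 and -0.94. No midlife mouse lay above the 28 mo median of Nlrc5 or H2-Aa, while 15 and 19 lay above their 3 mo medians. H2-Q6, with a contrast of -0.44, has close copies and its share of their reads is uncertain. Summed macrophage markers had medians of 363 CPM at 3 mo, 370 at 9 mo, 375 at 15 mo, 433 at 24 mo and 458 at 28 mo. Those of B cells were 43.1, 27.0, 30.1, 32.8 and 21.6 CPM. Their part in the antigen presentation differences was not tested.

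**Figure D5:**
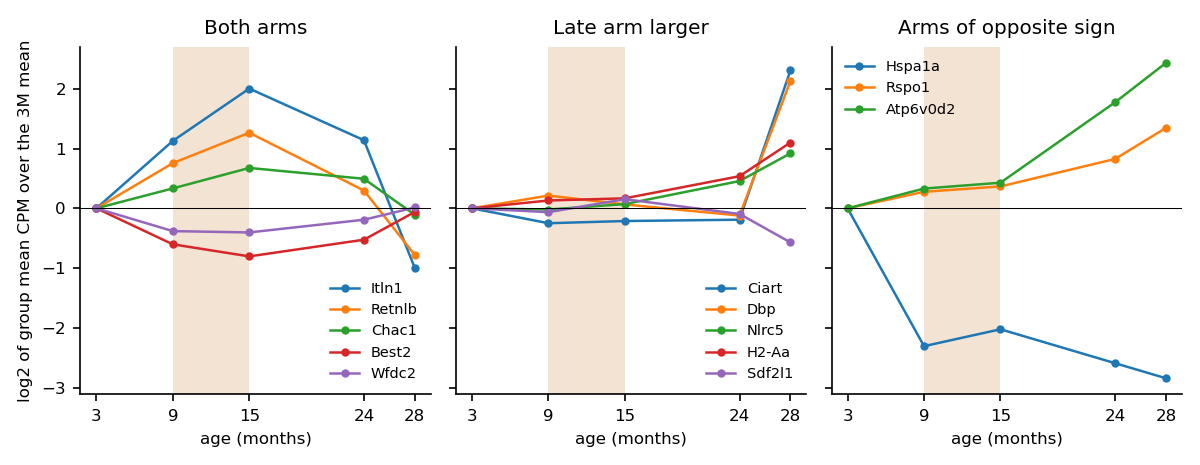
Log2 of each age group's mean CPM over the 3 mo mean (y axis) against age in months (x axis), with midlife shaded, for genes with arms of the same sign (left), genes whose late arm was the larger (middle) and genes with arms of opposite sign (right). On the left the lines leave 0 by 9 mo and come back to or past it by 28 mo, in the middle they stay near 0 until 15 mo, and on the right they keep the same direction from 3 mo to 28 mo overall.

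Some calls had arms of opposite sign and lay between the ends in midlife. Hspa1a and Hspa1b, the inducible HSP70 genes, had contrasts of -0.76 and -0.66, but Hspa1a spanned 4.99 to 186 CPM at 3 mo (median 8.32), 4.13 to 20.3 at 9 mo (median 6.51), 3.06 to 21.9 at 15 mo (median 7.58), 4.08 to 14.1 at 24 mo (median 5.28) and 2.96 to 16.0 at 28 mo (median 4.68), with arms of -2.19 and 0.67. The early arm came with few very high mice at 3 mo, whose median was close to that of midlife, and without replicate 13 at 3 mo the adjusted p-values of the contrast were 0.131 for Hspa1a and 0.243 for Hspa1b. The 2 genes are near-identical copies. Rspo1, a Wnt amplifier, and Atp6v0d2, a proton pump subunit, had negative contrasts of -0.36 and -0.84 with early arms above 0, 0.31 (adjusted p = 0.367) and 0.37 (adjusted p = 0.309), and late arms of -1.03 and -2.04.

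Genes of salt and water transport did not move together. Of 19 ion transport genes 2 rose and 5 fell (36.8% called, against 23.4% of all genes). Best2, the bicarbonate channel of colonic goblet cells, had group medians of 4.92 CPM at 3 mo, 3.86 at 9 mo, 3.75 at 15 mo, 3.72 at 24 mo and 5.75 at 28 mo and a contrast of -0.66 ± 0.14, with even arms of -0.70 and -0.63 (trough test adjusted p = 0.111). Atp12a, the colonic proton-potassium pump, had a contrast of 1.06 ± 0.27 through a late arm of 2.06, and its contrast within batches was 1.53, 1.67 and -0.31. The water channel gene Aqp8 had 0.28 ± 0.07 with arms of 0.27 and 0.30 (peak test adjusted p = 0.331).

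Spp1, which encodes the matrix protein osteopontin, had group medians of 0.958 CPM at 3 mo, 2.07 at 9 mo, 1.72 at 15 mo, 0.780 at 24 mo and 0.516 at 28 mo. Its contrast was 1.31 ± 0.17 (adjusted p = 3.23e-08), with arms of 0.79 and 1.82 and a peak test adjusted p of 0.108, and all 32 midlife mice lay above the median of both ends. Ccl20, the chemokine that draws lymphocytes and dendritic cells to the epithelium, had 0.58 ± 0.14 with arms of 0.61 and 0.56, and 7 of 26 chemokine and cytokine genes rose and 1 fell (30.8% called, against 23.4% of all genes, with a median contrast of 0.03). Elastin, Eln, was lower in midlife by both arms (-0.34 and -0.30), as was the imprinted gene Peg3, with a contrast of -0.36. Neither passed the trough test (adjusted p = 0.169 and 0.329). Meg3, an imprinted non-coding RNA, had an early arm of -0.91 and a late arm of 0.01, a step after 3 mo.

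Genes of the Notch and Wnt pathways, which direct epithelial fate and renewal, had small contrasts. Of 14 Notch and secretory fate genes 5 fell and none rose, and of 25 Wnt genes 7 fell and 2 rose. The shares called were 35.7% and 36%, against 23.4% of all genes. Among those that fell was the receptor gene Notch1 with -0.18 ± 0.04 (arms -0.19 and -0.18, trough test adjusted p = 0.169). The secreted Wnt antagonist gene Sfrp4 was 1 of the 2 Wnt genes that rose, with 0.45 ± 0.11 and even arms of 0.44 and 0.46. The ligand gene Wnt2b fell by both arms (-0.23 and -0.29). Neither passed the peak and trough test (adjusted p = 0.249 and 0.334). The antioxidant genes Gpx2 and Prdx6, which detoxify peroxides, had contrasts of 0.43 ± 0.07 and 0.35 ± 0.06 carried by the late arm (0.67 and 0.57). Of the 17 genes of their list 4 were higher and none lower (23.5%, against 11.9% of all genes higher). Lymphatic endothelial markers fell in 4 of 5 (80% called, against 23.4% of all genes), all by the late arm alone. Of 10 T cell markers 2 fell, Cd4 with -0.29 ± 0.08 and Cd3g with -0.25 ± 0.09 (20%, against 11.5% of all genes lower).

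Several groups had no member past the contrast: collagens (22 tested), senescence and p53 genes (16), smooth muscle (10), interstitial cells of Cajal and PDGFRA cells (7 in 1 list), crypt stem cells (6) and adipocytes (12). At an unadjusted p under 0.05 these lists held 1, 0, 0, 0, 0 and 0 members, and DESeq2 called 0, 0, 0, 0, 0 and 0. Their median contrasts ran from -0.09 for adipocytes to 0.13 for smooth muscle. All 10 smooth muscle markers had a contrast above 0, 8 of them with both arms above 0. Their sum spanned 1175 to 6245 CPM among the 3 mo mice.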

How the data were processed

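The deposited values were counts of read pairs per gene and mouse, neither normalised nor pooled. The authors trimmed reads with cutadapt 2.8, aligned them to GRCm38.p6 with HISAT2 2.1.0, kept uniquely mapped reads with SAMtools 1.9 and counted pairs by strand with featureCounts of Subread 2.0.1, per the labels and the methods. Gene positions came from a GRCm38 annotation of another release than the methods name, which matched 37652 of 37764 IDs.

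Counts were analysed in edgeR 4.0.16 (R 4.3.3): filterByExpr by age, TMM, age group and batch in 1 model of all 83 mice. Named genes were up to 12 peaks and 12 troughs with the largest smaller arm among those with a mean of at least 1 CPM, the same sign in every batch and a gene symbol other than a clone, pseudogene or receptor segment name, and up to 3 members per list. Members, lists and the test were chosen with earlier results of these data known. Mice of 1 age differed by 11.8 to 38.6 times counting noise (lowest and median of 649 pairs), so none was a duplicate. The test was run on simulated counts first. DESeq2 1.42.0 was an alternative.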

Additional observations from a re-analysis of the deposited data

How the results depend on the processing

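The midlife contrast, with 4295 genes called, moved by over 1.5 times only with other weights or fewer mice: 2504 genes with weights neutral to a straight line, 2521 with 9 mo alone as midlife, and 1129, 324 and 528 within batches 1, 2 and 3. Leaving out 1 mouse each gave 3837 to 4633. The peak and trough count of 43 was less stable: 28 without a filter on low counts, 20 at an adjusted p of 0.05, 86 with DESeq2, 477 when each arm was adjusted on its own, 1 with 9 mo alone, 66 with 15 mo alone, 0 with both midlife ages required, 0 within each of the 3 batches, and 18 to 104 without 1 mouse. Leaving out mice kept the normalisation and dispersions of the full fit. With the other alternatives (size factors, a CPM minimum, only the 66 mice, no batch term, and 3 exclusions of libraries that were chosen after seeing the data) both counts stayed within 1.5 times. Called with each of the 66 mice left out in turn were 14 of the 43 genes.

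Replicate numbers did not pair the mice: 96 pairs with the same number had a median correlation of deviations of 0.033 and 17 were over 0.1. A replicate block gave 3737 genes for the midlife contrast and 30 for peaks and troughs. No arm of the 22 named genes changed sign in 396 values, of which 161 lost the call. The naming rule required the same sign of the contrast in every batch, and the other fits share most mice. A change of sign was therefore unlikely from the choice of genes. Of 1036 values of 61 list genes, 145 lost the call and 1 reversed, Atp12a in batch 3 alone (-0.31, adjusted p = 0.779); the cause was not tested. Depth limits low genes most: Grpr and Olfr165 rest on 32 and 20 read pairs in their lowest mice.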

Other observations

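At 24 mo, an age with no weight in the contrast, the peak gene Pla2g4c lay between 3.85 and 9.26 CPM in 8 mice and between 47.8 and 498 CPM in the other 9, with no mouse in between. The same 8 mice were the lowest for Pnliprp2 (up to 5.82 CPM, the others from 16.7 CPM), Itln1 (up to 10.5 CPM, the others from 19 CPM), Ang4 and Retnlb, and 7 of them were among the 8 lowest for Clps and for Chrm3. Mice of both kinds were present in every library batch, 2 low and 3 high in batch 1, 2 and 4 in batch 2, and 4 and 2 in batch 3. These are values of mice ordered by a measured level, and no test was made on them.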
